A study of Mus musculus with 24 samples.

Results

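The 40 genes described here carry pyruvate and fatty acids into the mitochondrion and through the tricarboxylic acid (TCA) cycle and beta-oxidation, and they were chosen by these roles with earlier results of these data known. Of the probe sets of a gene, the one with the highest mean over all arrays stood for it. The array holds 18193 genes with a probe set of their own, among 45037 probe sets in all. Of the 40 genes, 39 had such a probe set. The probe set of Cpt1b, the muscle form of carnitine palmitoyltransferase 1, is annotated to other genes as well, and Cpt1b was given no value. C2C12 is an established line of mouse skeletal myoblasts. RNA was measured on 24 Affymetrix mouse arrays, 3 replicates for each of 8 time points. Cells of Day -1 were growing at 50% confluency and cells of Day 0 were at 90% confluency, both in medium with 10% fetal bovine serum. Differentiation into myotubes was then induced by a reduction of serum, which the labels give as 2%, and cells were taken 6 hours later (Day 0.25) and on Day 1, Day 2, Day 3, Day 4 and Day 5. In these bulk samples, more cells of a type and more RNA of a gene per cell cannot be told apart.

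The pyruvate dehydrogenase complex turns pyruvate into acetyl-CoA. Pyruvate dehydrogenase kinases switch the complex off by phosphorylation and the phosphatases switch it on. Citrate synthase feeds the acetyl group into the TCA cycle, whose dehydrogenases pass electrons to the respiratory chain. Long-chain fatty acids are released outside the cell by lipoprotein lipase, taken up with the help of CD36, bound in the cytosol by FABP3 and moved into the mitochondrion as carnitine esters. There the acyl-CoA dehydrogenases and the trifunctional protein shorten them, and electron transfer flavoprotein carries the electrons onward. Working skeletal muscle is known for its use of both fuels.

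Levels are means of the 3 intensities at a time point, with the SD where given. Trimmed means of the arrays ranged from 144 to 155, and the share of probe sets at an intensity of 100 or more ranged from 25.3% to 27.0%. Within a time point, the correlation between arrays of log2 values across probe sets lay between 0.962 and 0.996. The 10 markers of skeletal muscle differentiation all reached a level of 100, and their summed intensity lay between 3355 and 3785 on the arrays of Day -1 and between 48004 and 55381 on those of Day 5. Of 8 measured adipocyte markers, Dgat2 alone reached a level of 100. Adipoq, Retn, Lep and Fabp4, which define the adipocyte, lay at or below 5.62 at every time point. None of the 8 markers each of endothelium, macrophages and cardiac muscle reached a level of 100. Whether the replicates came from separate cultures is not given in the sources used here, so p-values speak only to how far these arrays differ among themselves, possibly for technical reasons, and the number of arrays limits the precision.

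Pdk2, one of the pyruvate dehydrogenase kinases, stayed below a level of 100 at every time point and was not tested, which left 38 genes. Of these, 34 changed over the 8 time points (limma's F test, adjusted p under 0.05), a share set beside 89.4% of the 7906 genes tested. The 4 that did not pass were Cs, Ogdh, Dlst and Mdh1, all of the TCA cycle. The changes were small. The range of the 8 levels of a gene was 1.53-fold at the median of the 38 genes and 1.88-fold at the median of all genes, and 9 of the 38 (23.7%) ranged over at least 2-fold, beside 43.9% of all genes. The lowest level lay on Day -1 for 18 of the 38 (47.4%), beside 20.3% of all genes, and on Day 5 for 10 (26.3%, beside 24.9%). The highest level lay on Day 0 for 9 (23.7%, beside 20.8%). Some genes reached a level of 100 at part of the time points, namely Cd36 from Day 2 on, Fabp3 from Day 1 on, Acads from Day 0 to Day 4, Pdk4 at all times but Days -1, 0 and 1, and Pdk3 at all times but Days 4 and 5.

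**Figure D1:**
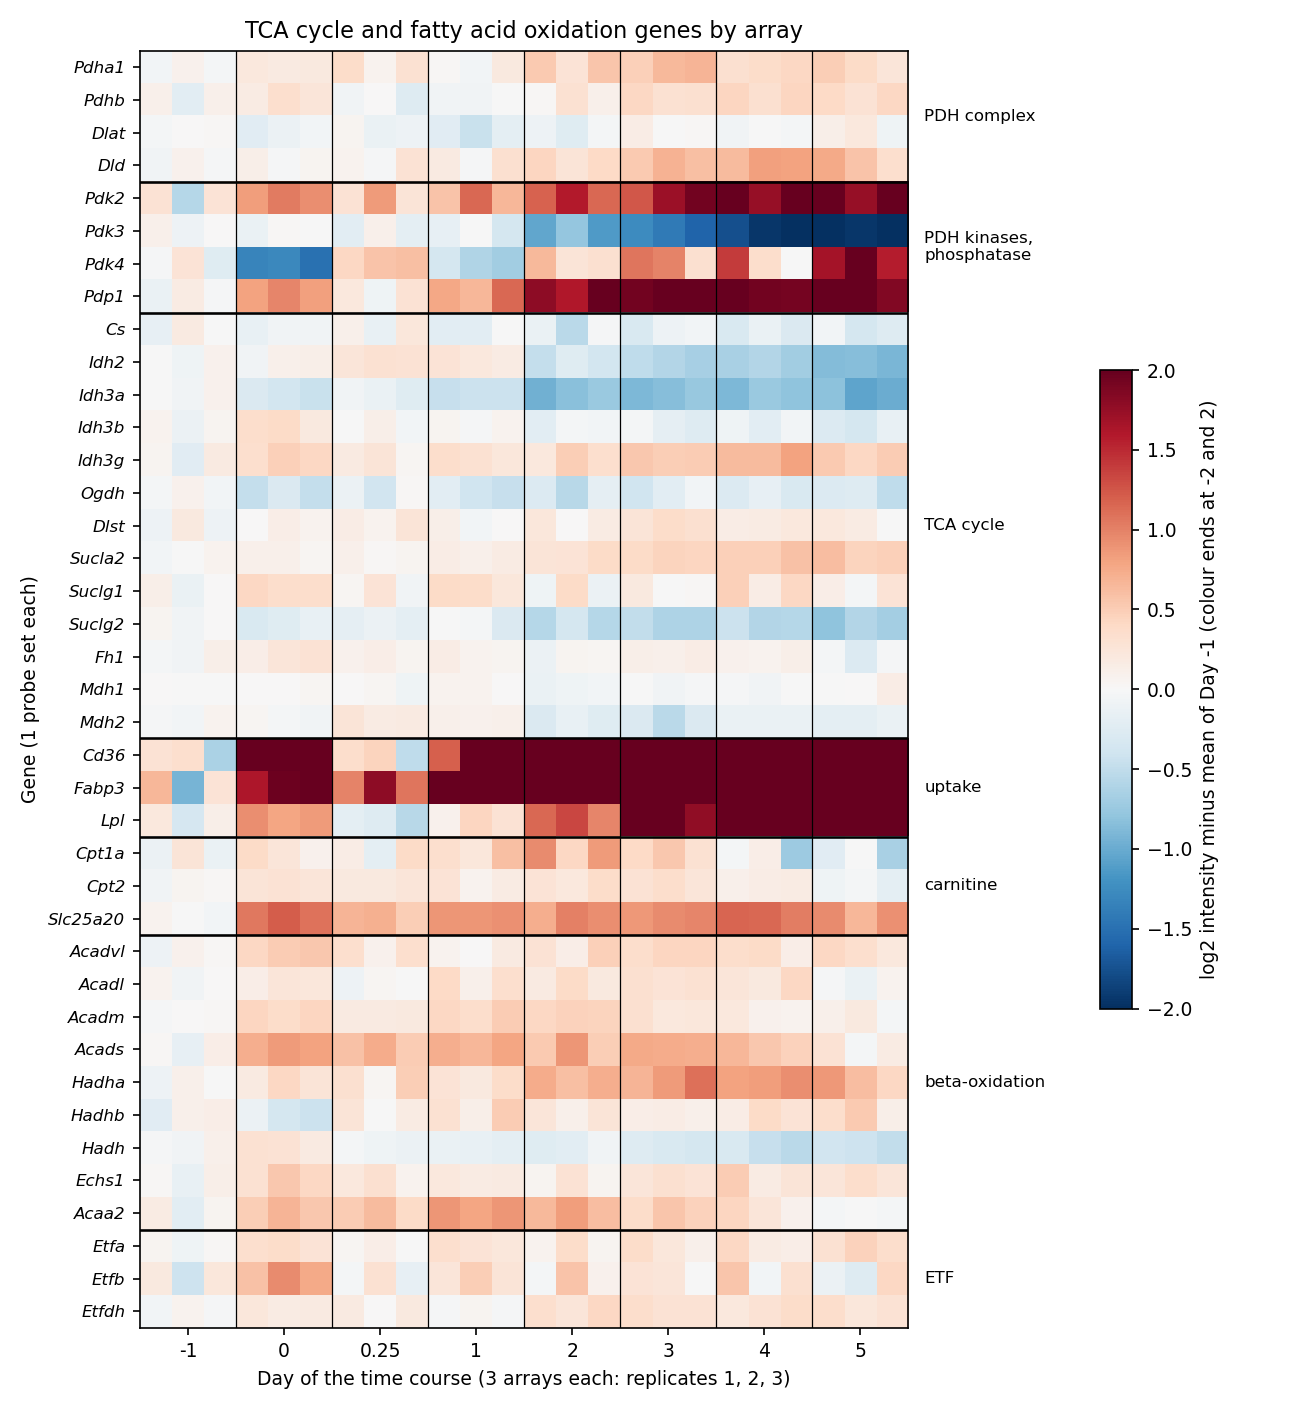
Each row is 1 gene and each column 1 array, with 3 arrays per time point, and colour gives log2 intensity minus the mean log2 intensity of Day -1 (red higher, blue lower, colour ends at -2 and 2). Cd36, Fabp3, Lpl and Pdp1 were higher and Pdk3 lower on all arrays of Day 5, while most rows of the TCA cycle and of beta-oxidation stay pale.

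The fatty acid genes and the genes of pyruvate and the TCA cycle were counted side by side, with no test between them. From Day -1 to Day 0, 20 of the 38 genes rose and 4 fell, with 25.2% of all genes called higher and 21.5% called lower. Among the 18 fatty acid genes 14 rose and none fell, with a median log2 change of 0.41, and among the 20 tested genes of pyruvate and the TCA cycle 6 rose and 4 fell, with a median of 0.05, beside 0.02 for all genes. Under some other settings the fatty acid gene Hadhb was called lower and the rise of Etfdh was not called. In that interval the arrays of 28 of the 38 genes did not overlap, beside 61.4% of all genes. Beside this, 10 of 10 muscle markers also rose, and the summed adipocyte markers went from between 97.7 and 102 to between 149 and 162, most of it Dgat2. The part of either in the changes of the fatty acid genes was not tested.

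From Day 0 to Day 0.25, 5 genes rose and 11 fell, with 21.5% of all genes called higher and 23.6% called lower. Of the 18 fatty acid genes 7 fell and 1 rose, and of the 20 genes of pyruvate and the TCA cycle 4 rose and 4 fell. This interval shares the arrays of Day 0 with the one before it, as neighbouring intervals share arrays throughout, so their values stand side by side and are not set against each other. From Day 0.25 to Day 1, 7 genes rose and 2 fell, with 12.3% and 14.1% of all genes called, and 6 of the genes that rose were fatty acid genes. From Day 1 to Day 2, 8 rose and 5 fell, with 19.6% of 7383 genes called higher and 16.8% called lower. All 5 that fell belonged to pyruvate and the TCA cycle, and 5 of the 8 that rose were fatty acid genes. From Day 2 to Day 5, 4 rose and 9 fell, with 12.5% and 21.5% of all genes called. Of the 9 that fell, 7 were fatty acid genes. From Day -1 to Day 5, 17 rose and 8 fell, with 31.6% and 38.4% of all genes called. The fatty acid genes then counted 10 higher and 1 lower, and the pyruvate and TCA cycle genes 7 higher and 7 lower. Changes of at least 2-fold passed for 6 of the 38 genes over this whole course, beside 29.5% of all genes. In the 5 shorter comparisons, in the order given, they passed for 4, 3, 2, 2 and 5 genes, beside 10.8%, 8.71%, 4.45%, 8.82% and 7.82% of all genes.

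**Figure D2:**
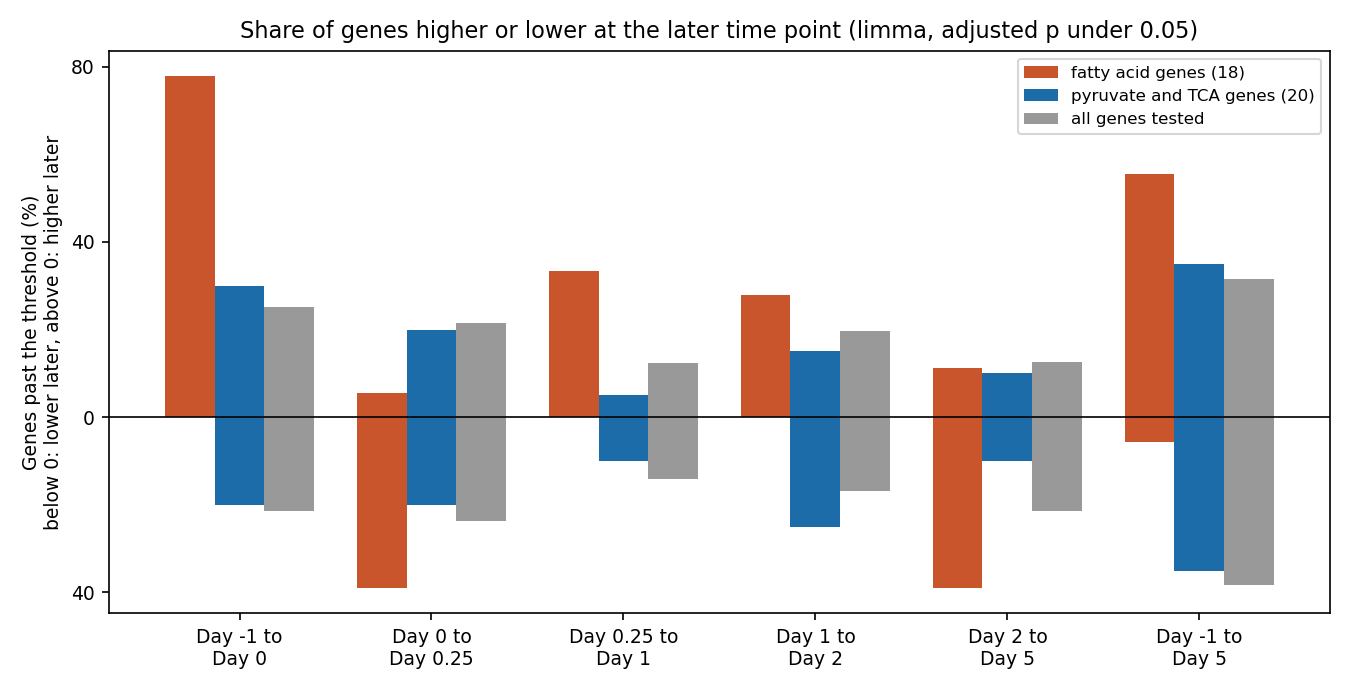
Bars give the percent of genes past the threshold in each comparison, above 0 for genes higher and below 0 for genes lower at the later time point, for 18 fatty acid genes, 20 genes of pyruvate and the TCA cycle and all genes tested. From Day -1 to Day 0 the bar of higher fatty acid genes stands at 77.8% with no bar below 0, beside 25.2% and 21.5% for all genes.

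Many calls of small changes over single intervals did not hold when 1 array was left out, and several were lost without any of several arrays. Without one array or another of the time points compared, 7 of 24 calls were lost between Day -1 and Day 0, 8 of 16 between Day 0 and Day 0.25, 6 of 9 between Day 0.25 and Day 1 and 6 of 13 between Day 1 and Day 2. The calls lost were 3 of 13 between Day 2 and Day 5 and 5 of 25 between Day -1 and Day 5. From Day 0 to Day 0.25 the 5 genes higher became 3 without Day 0 replicate 2, and 2 without Day 0 replicate 3 or Day 0.25 replicate 1. From Day 0.25 to Day 1 the 7 genes higher became 4 without Day 0.25 replicate 3 or Day 1 replicate 1, and 2 without Day 0.25 replicate 1 or Day 1 replicate 3, and the 2 genes lower became 1 without Day 0.25 replicate 1. From Day 1 to Day 2 the 8 genes higher became 5 without replicate 1 or 2 of Day 1 or replicate 3 of Day 2, and 4 without replicate 1 of Day 2. In the same interval the 5 genes lower became 2 without replicate 1 or 2 of Day 1 or replicate 1 of Day 2, and 3 without replicate 3 of Day 2. Calls named below for the 38 genes held without each array of the comparison in turn unless the text says otherwise.

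Of the 4 measured genes of the pyruvate dehydrogenase complex, 3 were called higher from Day -1 to Day 5 and none lower, beside 31.6% of all genes called higher and 38.4% called lower. Dld encodes dihydrolipoamide dehydrogenase, which this complex shares with the 2-oxoglutarate dehydrogenase complex. Its intensities were 921, 1028 and 950 on Day -1 and 1627, 1433 and 1222 on Day 5, with no overlap. The levels between, in order of time, were 1002, 1045, 1082, 1244, 1471 and 1630. The log2 change from Day -1 to Day 5 was 0.55 (SE 0.11, adjusted p = 0.000187), with no call in any of the shorter intervals. Pdha1 and Pdhb encode both chains of the first enzyme of the complex. Pdha1 rose from 1947 ± 110 to 2520 ± 213 (SD, n = 3), with a log2 change of 0.37 (SE 0.10, adjusted p = 0.00285), after 2225, 2320, 2021, 2668, 2946 and 2511 at the time points between. Pdhb rose from 1220 ± 144 to 1570 ± 70.5, with a log2 change of 0.37 (SE 0.10, adjusted p = 0.00196), after 1444, 1130, 1174, 1342, 1544 and 1596. Its fall from Day 0 to Day 0.25 also passed (log2 change -0.36, adjusted p = 0.00598). Dlat, the acetyltransferase core of the complex, did not pass on the probe set used here (547 ± 14.5 and 580 ± 58.8, adjusted p = 0.436), while another of its probe sets, with a mean of 131, gave a log2 change of 1.11 (adjusted p = 1.35e-05).

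The regulators of the complex changed more than the complex itself, and in both directions. Pdk3 encodes a kinase that shuts the complex down. Its intensities were 302, 260 and 280 on Day -1 and were still 251, 278 and 220 by Day 1. They were 136, 164 and 128 on Day 2 and had reached 66.8, 73.0 and 69.1 by Day 5. All arrays of Day 2 lay below all of Day 1, and all of Day 5 below all of Day 2. Pdk3 changed on the log2 scale by -0.81 from Day 1 to Day 2 (SE 0.14, adjusted p = 0.00435), by -1.03 from Day 2 to Day 5 (SE 0.12, adjusted p = 2.79e-06) and -2.01 from Day -1 to Day 5 (SE 0.12, adjusted p = 1.34e-11). Pdk4, another kinase of the complex, is known to rise in muscle when fatty acids are the fuel. It fell from 76.3, 94.3 and 65.7 on Day -1 to 31.2, 31.9 and 27.7 on Day 0. It then rose within 6 hours to 104, 116 and 118, with a log2 change of 1.90 (SE 0.28, adjusted p = 2.35e-05), after a change of -1.37 from Day -1 to Day 0 (SE 0.28, adjusted p = 0.000516). It fell to 61.3, 51.2 and 48.1 on Day 1 (log2 change -1.08, adjusted p = 0.00695), rose to 122, 92.8 and 97.0 on Day 2 (0.95, adjusted p = 0.00295) and reached 248, 402 and 231 on Day 5 (1.46 from Day 2, adjusted p = 0.000361). Its levels of 138 ± 36.2 on Day 3 and 127 ± 68.3 on Day 4 had a wide spread, with 205 on replicate 1 of Day 4 beside 99.0 and 77.5. Pdk4, Cd36 and Lpl passed in all 6 comparisons, and no other of the 38 genes did, though Cd36 was below a level of 100 on both sides of 3 of them. Pdk4 was below that level on both Day -1 and Day 0, at 78.8 and 30.3. It entered the test through its levels on Day 0.25 and from Day 2 on. The call of Lpl from Day 0.25 to Day 1 was lost without replicate 1 or 3 of Day 0.25 or replicate 2 or 3 of Day 1 (adjusted p between 0.0531 and 0.135). Pdk2 was listed at 10.7 ± 3.25 on Day -1 and 52.5 ± 15.8 on Day 5 and was too low to test.

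Pdp1 encodes the catalytic subunit of the phosphatase that reverses these kinases. Its intensities were 128, 158 and 139 on Day -1, 247, 277 and 248 on Day 0 and 163, 134 and 173 on Day 0.25, so that the arrays of Day 0 lay above those on either side. The log2 changes were 0.86 (SE 0.13, adjusted p = 2.72e-05) and -0.72 (SE 0.13, adjusted p = 0.000224). Pdp1 then rose to a level of 260 on Day 1 (log2 change 0.72, adjusted p = 0.000463) and to 489, 428 and 563 on Day 2 (0.93, adjusted p = 0.00485). Later levels were 583 on Day 3, 552 on Day 4 and 561 on Day 5, with no call from Day 2 to Day 5 (adjusted p = 0.278). From Day -1 to Day 5 the log2 change was 1.99 (SE 0.13, adjusted p = 4.57e-11). The other probe set of Pdp1 gave 0.73 from Day 2 to Day 5 (adjusted p = 0.00715) and 2.82 from Day -1 to Day 5 (adjusted p = 1.26e-10), so that the call after Day 2 depends on the probe set. The promoter window of Pdk4 is printed because Pdk4 passed in every comparison, with its CCAAT box, read here from the other strand, in capitals.
Pdk4 (chr6:5496279-5496528, minus strand): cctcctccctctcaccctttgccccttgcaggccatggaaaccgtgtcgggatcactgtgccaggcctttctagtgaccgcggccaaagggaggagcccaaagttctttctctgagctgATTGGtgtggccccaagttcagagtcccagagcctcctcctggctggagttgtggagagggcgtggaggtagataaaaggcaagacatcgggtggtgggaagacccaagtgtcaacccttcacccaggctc

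**Figure D3:**
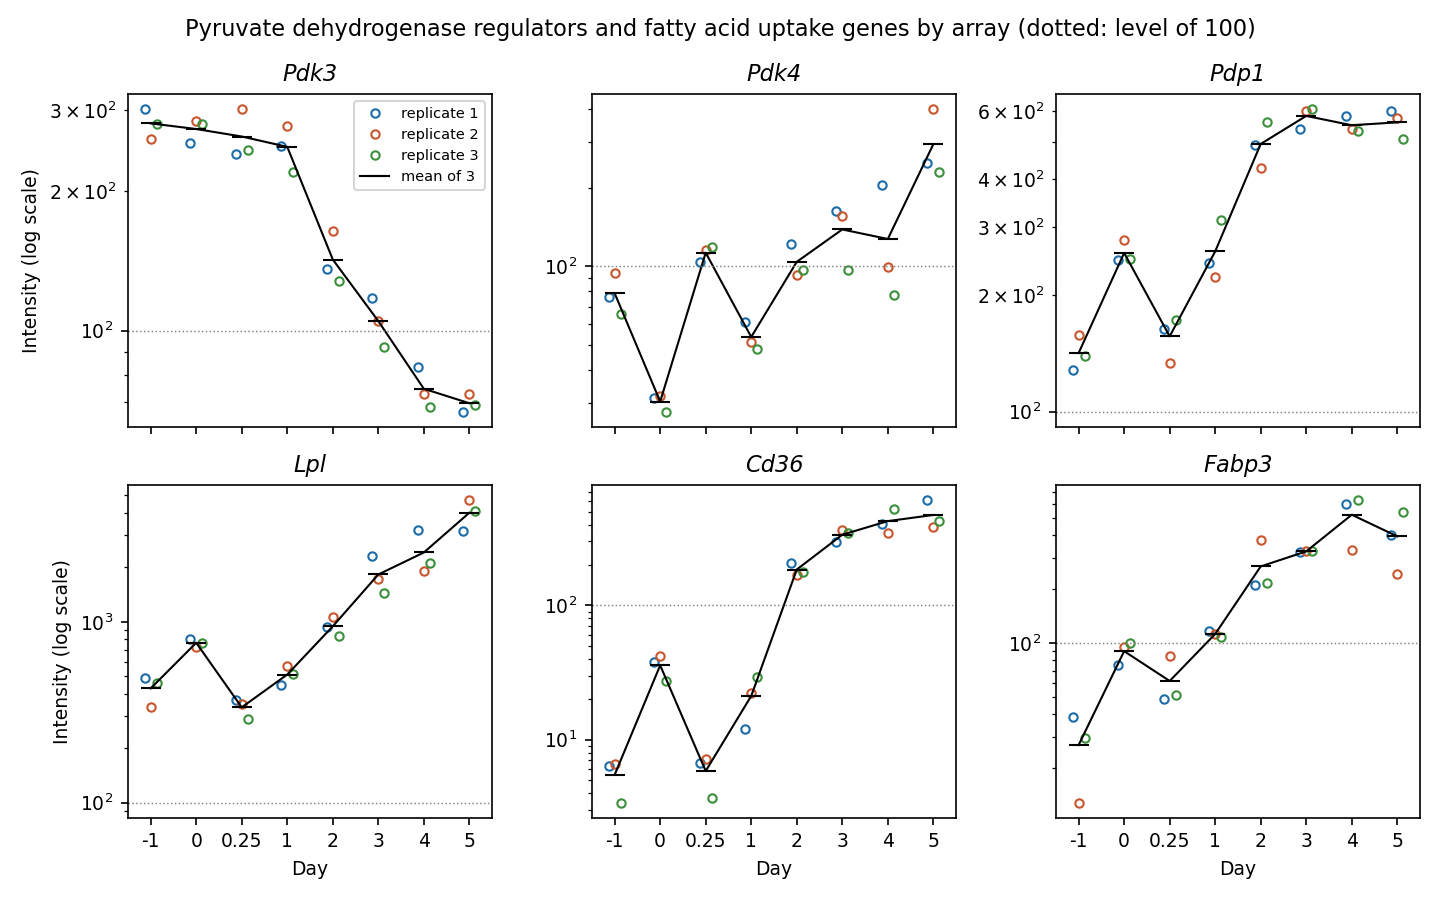
Each panel gives the intensity of 1 gene on a log axis against the day, with a circle for each of the 3 replicates and a line through the means. A dotted line marks the level of 100. Pdk3 declines from Day 1 to Day 5, Pdk4 is lowest on Day 0, and Lpl, Cd36 and Pdp1 have a local high on Day 0. Lpl and Cd36 later rise to 4008 and 473 on Day 5, while Pdp1 stands at 583 on Day 3 and 561 on Day 5.

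Genes of the TCA cycle moved in both directions, and subunits of one enzyme did not move together. Of 13 genes, 2 were called higher and 6 lower on Day 5 than on Day -1 (31.6% and 38.4% of all genes), with a median log2 change of -0.17, beside -0.08 for all genes. NAD-dependent isocitrate dehydrogenase is made of the subunits of Idh3a, Idh3b and Idh3g, and Idh3a encodes the catalytic one. The intensities of Idh3a were 2679, 2563 and 2871 on Day -1 and 1523, 1301 and 1364 on Day 5, without overlap. In between, the levels were 2102, 2436, 1993, 1506, 1514 and 1534 in order of time. Idh3a changed by -0.36 on the log2 scale from Day -1 to Day 0 (SE 0.08, adjusted p = 0.00155) and -0.96 from Day -1 to Day 5 (SE 0.08, adjusted p = 3.28e-09). Another probe set of Idh3a, with a mean of 116, gave -0.07 from Day -1 to Day 0 (adjusted p = 0.747) and -0.39 from Day -1 to Day 5 (adjusted p = 0.0271). The size of the fall to Day 5 thus depends on the probe set. Idh3g, a regulatory subunit, went the other way. Its intensities were 1302, 1070 and 1422 on Day -1 and 1815, 1678 and 1793 on Day 5, with levels of 1671, 1406, 1542, 1599, 1791 and 2034 in between. Idh3g changed by 0.41 on the log2 scale from Day -1 to Day 0 (SE 0.10, adjusted p = 0.0025) and 0.49 from Day -1 to Day 5 (SE 0.10, adjusted p = 0.000228). Idh3b, another regulatory subunit, rose from 1699 ± 120 to 2109 ± 141 on Day 0 (log2 change 0.31, SE 0.09, adjusted p = 0.00729). Its later levels were 1720, 1737, 1586, 1523, 1560 and 1422 ± 104, the last lower than on Day -1 (log2 change -0.26, adjusted p = 0.0139). That call was lost without replicate 1 or 3 of Day -1 or replicate 2 of Day 5 (adjusted p = 0.0561, 0.0508 and 0.067) and in a fit of the 6 arrays of both days (0.112). Another probe set of Idh3b, with a mean of 907, gave -0.87 from Day -1 to Day 5 (adjusted p = 4.46e-07) and 0.26 from Day -1 to Day 0 (adjusted p = 0.0515).

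Idh2 encodes the NADP-dependent isocitrate dehydrogenase of mitochondria. Its intensities were 1181, 1122 and 1256 on Day -1 and 1432, 1366 and 1327 on Day 1. They were 851, 1006 and 923 on Day 2 and 648, 655 and 626 by Day 5. Every array of Day 2 lay below every array of Day 1, and every array of Day 5 below those of Day 2. Days 0 and 0.25 had levels of 1230 and 1440, and Days 3 and 4 had 793 and 760. Idh2 changed by -0.57 on the log2 scale from Day 1 to Day 2 (SE 0.11, adjusted p = 0.00613), -0.52 from Day 2 to Day 5 (SE 0.08, adjusted p = 3.87e-05) and -0.88 from Day -1 to Day 5 (SE 0.08, adjusted p = 5.34e-09).

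Succinyl-CoA synthetase, which makes a nucleoside triphosphate from succinyl-CoA, joins the alpha subunit of Suclg1 to one of a pair of beta subunits. Sucla2 encodes the beta subunit of the ATP-forming enzyme and Suclg2 that of the GTP-forming enzyme. Sucla2 had intensities of 1956, 2035 and 2130 on Day -1 and of 3123, 2784 and 2826 on Day 5. Its levels of 2161, 2131, 2250, 2526, 2736 and 2910 at the time points between lay in an order close to that of time. The log2 change from Day -1 to Day 5 was 0.51 (SE 0.07, adjusted p = 1.81e-06). Suclg2 had intensities of 622, 569 and 603 on Day -1 and of 341, 399 and 373 on Day 5, with levels of 508, 534, 557, 424, 402 and 413 in between. Its log2 change was -0.69 (SE 0.09, adjusted p = 1.38e-06), so that the pair of beta subunits moved in opposite directions, each without overlap of its arrays. Suclg1 did not pass from Day -1 to Day 5 (1200 ± 103 and 1307 ± 135, log2 change 0.12, adjusted p = 0.409). Its levels in between were 1555, 1273, 1499, 1260, 1260 and 1533.

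Ogdh, the first enzyme of the 2-oxoglutarate dehydrogenase complex, fell from 776 ± 43.3 to 583 ± 43.7 from Day -1 to Day 0 (log2 change -0.41, SE 0.12, adjusted p = 0.00894). It was also lower on Day 5 (612 ± 57.8, log2 change -0.34, adjusted p = 0.0158), a call lost without Day -1 replicate 2 or Day 5 replicate 3 (adjusted p = 0.0597 and 0.0821). Over the 8 time points Ogdh did not pass limma's F test (adjusted p = 0.061). Mdh2, mitochondrial malate dehydrogenase, had 5929 ± 293 on Day -1 and 5261 ± 133 on Day 5 (log2 change -0.17, adjusted p = 0.0491). This call was lost without Day -1 replicate 1 or 3 or any 1 array of Day 5 (adjusted p between 0.0516 and 0.172), and also with the replicate number as a block (0.0579) and in a fit of the 6 arrays of both days (0.233). The other probe set of Mdh2 at a level of 100, with a mean of 3382, gave -0.52 (adjusted p = 2.67e-05). Fumarate hydratase (Fh1), Dlst and cytosolic malate dehydrogenase (Mdh1) were not called from Day -1 to Day 5. Citrate synthase (Cs) was not called either on the probe set used here (4498 ± 541 and 3852 ± 432, log2 change -0.22, adjusted p = 0.135). The other probe sets of Cs at a level of 100 gave -0.69 (adjusted p = 3.86e-05) and -0.41 (adjusted p = 0.000233), so that the call for citrate synthase depends on the probe set. For Mdh1 the probe set used gave 0.05 (adjusted p = 0.490) and another gave -0.30 (adjusted p = 0.0137).

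**Figure D4:**
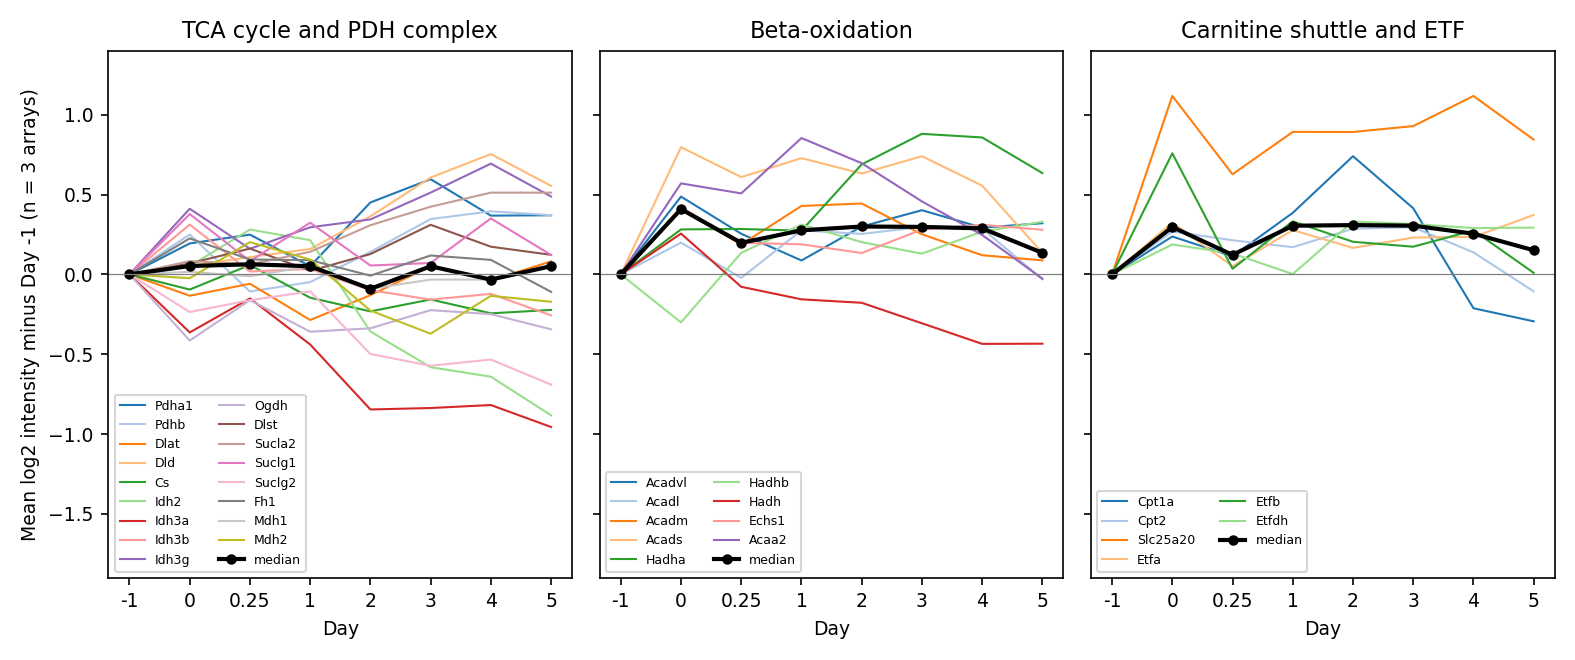
Lines give the mean log2 intensity of each gene (3 arrays per time point) minus that of Day -1, for 17 genes of the pyruvate dehydrogenase complex and the TCA cycle, 9 of beta-oxidation and 6 of the carnitine shuttle and electron transfer flavoprotein (ETF), and the black line is the median of the genes shown. On Day 0 the median stands at 0.05, 0.41 and 0.30, and on Day 5 at 0.05, 0.14 and 0.15.

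Genes of fatty acid uptake had the highest median log2 change of the role groups from Day -1 to Day 5, at 3.94. All 3 rose before induction, again from Day 1 to Day 2, and over the whole course, beside 25.2%, 19.6% and 31.6% of all genes called higher. Cd36 and Fabp3 were below a level of 100 on both Day -1 and Day 0. Cd36 encodes the fatty acid translocase of the plasma membrane. Its intensities were 6.39, 6.62 and 3.39 on Day -1 and 37.9, 42.1 and 27.4 on Day 0. After 6 hours they were back at 6.69, 7.14 and 3.67, and on Day 1 they were 12.04, 22.1 and 29.3. Day 2 had 208, 170 and 177 and Day 5 had 613, 382 and 423, with levels of 337 and 425 on the days between. The arrays of Day 0 stood apart from those of Day -1 and Day 0.25, all below the level of 100, and from Day 2 on every array was above it. Cd36 entered the test through its levels from Day 2 on, and on Days -1 and 0.25 it lay about as low as the adipocyte marker Fabp4, so that the size of a change against those days depends on how low values are treated. The log2 change was 2.75 from Day -1 to Day 0 (adjusted p = 8.9e-07) and -2.65 from Day 0 to Day 0.25 (adjusted p = 2.03e-06), but 1.26 (adjusted p = 1.24e-05) and -1.24 (adjusted p = 2.03e-05) after a pseudocount of 16 was added to every intensity. From Day 0.25 to Day 1 it was 1.82 (adjusted p = 0.000279), or 0.74 with the pseudocount (adjusted p = 0.00467). From Day 1 to Day 2 it was 3.22 (SE 0.30, adjusted p = 0.000634), or 2.46 with the pseudocount, and from Day 2 to Day 5, with all arrays above 100, it was 1.33 (SE 0.31, adjusted p = 0.00251). From Day -1 to Day 5 it was 6.47 (adjusted p = 4.64e-13), or 4.48 with the pseudocount (adjusted p = 1.66e-14). A further probe set of Cd36, with a mean of 52.4, gave 5.01 from Day -1 to Day 5 (adjusted p = 1.67e-13) and 0.51 from Day -1 to Day 0 (adjusted p = 0.0737). The high on Day 0 was thus called on 1 of the probe sets and the rise to Day 5 on both.

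Fabp3 encodes the fatty acid-binding protein of heart and skeletal muscle. Its intensities were 38.6, 12.8 and 29.4 on Day -1, 75.1, 94.6 and 101 on Day 0, and 116, 112 and 109 on Day 1. Day 2 had 211, 377 and 216 and Day 5 had 402, 245 and 536. Levels were 61.4 after 6 hours and 325 and 521 on Days 3 and 4. The arrays of Day -1 lay below all others, and the spread on Day 2, Day 4 and Day 5 was wide. Fabp3 changed on the log2 scale by 1.87 from Day -1 to Day 0 (SE 0.35, adjusted p = 0.000252), 1.20 from Day 1 to Day 2 (SE 0.22, adjusted p = 0.00566) and 3.94 from Day -1 to Day 5 (SE 0.35, adjusted p = 4.24e-09). With no filter on the level, the change from Day 1 to Day 2 did not pass (adjusted p = 0.0564). Lpl encodes lipoprotein lipase, which frees fatty acids from circulating triglycerides. It rose from 488, 337 and 460 on Day -1 to 805, 729 and 763 on Day 0 and fell to 368, 353 and 289 on Day 0.25. The arrays of Day 0 lay above both, with log2 changes of 0.85 (SE 0.20, adjusted p = 0.00196) and -1.19 (SE 0.20, adjusted p = 0.000118). Lpl then stood at 511 ± 61.2 on Day 1 and at 939, 1062 and 832 on Day 2 (log2 change 0.89, SE 0.14, adjusted p = 0.00301). It reached 1826 ± 445 on Day 3, 2416 ± 716 on Day 4 and, on the arrays of Day 5, 3193, 4723 and 4107. On the log2 scale it changed by 2.07 from Day 2 to Day 5 (SE 0.20, adjusted p = 3.06e-07) and 3.23 from Day -1 to Day 5 (SE 0.20, adjusted p = 2.14e-11). The sequence upstream of the Cd36 start is printed because Cd36 had the highest log2 change of the 38 genes from Day -1 to Day 5, with its CCAAT box in capitals.
Cd36 (chr5:17835897-17836146, minus strand): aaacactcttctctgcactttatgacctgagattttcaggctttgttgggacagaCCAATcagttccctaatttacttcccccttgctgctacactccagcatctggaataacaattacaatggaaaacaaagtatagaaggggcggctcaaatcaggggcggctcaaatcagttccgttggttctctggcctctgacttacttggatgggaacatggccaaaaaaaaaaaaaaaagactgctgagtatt

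The carnitine shuttle was led by Slc25a20, the carrier that exchanges acylcarnitine for carnitine across the inner membrane. Its intensities were 162, 155 and 149 on Day -1, 321, 361 and 330 on Day 0 and 248, 255 and 218 on Day 0.25, in 3 sets without overlap. It changed by 1.12 on the log2 scale from Day -1 to Day 0 (SE 0.09, adjusted p = 1.53e-08) and -0.49 from Day 0 to Day 0.25 (SE 0.09, adjusted p = 0.000357). The level then stayed between 280 and 337, at 288, 289, 296, 337 and, on Day 5, 280 ± 29.2, and the log2 change from Day -1 to Day 5 was 0.84 (SE 0.09, adjusted p = 9.87e-08). Cpt1a encodes the liver form of carnitine palmitoyltransferase 1, the outer membrane step that malonyl-CoA inhibits, and it is the form measured here. Its intensities were 225, 294 and 223 on Day -1, 475, 326 and 445 on Day 2, and finally 209, 245 and 156. On Days 0, 0.25 and 1 it stood at 290, 269 and 322, and on Days 3 and 4 at 328 and 218. The change from Day 2 to Day 5 passed (log2 change -1.03, SE 0.21, adjusted p = 0.000759), and the change from Day -1 to Day 5 did not (log2 change -0.29, adjusted p = 0.220, with 0.41 and adjusted p = 0.139 on another probe set). Cpt2, the inner membrane transferase, rose from 307 ± 13.6 on Day -1 to 369 ± 6.51 on Day 0 (log2 change 0.27, adjusted p = 0.00597) and fell from 374 ± 21.8 on Day 2 to 285 ± 16.5 on Day 5 (log2 change -0.39, adjusted p = 0.000347, and 0.0696 in a fit of the 6 arrays of both days).

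Of the 9 genes of beta-oxidation, 6 were called higher on Day 0 than on Day -1 and none lower, beside 25.2% and 21.5% of all genes. Acadl, Hadha and Hadhb did not pass, with log2 changes of 0.20, 0.28 and -0.30, though the fall of Hadhb was called under some other settings. From Day 2 to Day 5, 5 fell and none rose, beside 21.5% called lower and 12.5% called higher. Of these 5 falls, those of Acadl, Acadm, Acads and Hadh did not pass in a fit of the 6 arrays of both days alone (adjusted p = 0.182, 0.092, 0.0768 and 0.196), and that of Acaa2 did (0.00851). The acyl-CoA dehydrogenases take the first step of each round, on chains of decreasing length from Acadvl through Acadl and Acadm to Acads. Acads had intensities of 86.8, 76.1 and 93.1 on Day -1 and 141, 154 and 149 on Day 0. Day 2 had 122, 157 and 120 and Day 5 had 103, 82.5 and 95.5. The arrays of Day 0 lay above those of Day -1, and those of Day 5 below those of Day 2, with log2 changes of 0.80 (SE 0.11, adjusted p = 9.73e-06) and -0.50 (SE 0.11, adjusted p = 0.0015). Acadm, whose loss causes the commonest inherited defect of the pathway, rose from 972 ± 12.6 to 1291 ± 32.3 on Day 0 (log2 change 0.41, SE 0.07, adjusted p = 0.000145). It fell from 1322 ± 24.3 on Day 2 to 1035 ± 82.8 on Day 5 (log2 change -0.36, SE 0.07, adjusted p = 0.000721) and was not called from Day -1 to Day 5 (adjusted p = 0.286). Acadvl rose from 960 ± 62.7 to 1345 ± 59.4 on Day 0 (log2 change 0.49, adjusted p = 0.000664) and was at 1199 ± 87.1 on Day 5 (log2 change 0.32 from Day -1, adjusted p = 0.00831, and 0.0547 in a fit of the 6 arrays of both days). Acadl was not called from Day -1 to Day 0 (adjusted p = 0.0802), and its fall from Day 2 to Day 5 was lost without Day 2 replicate 2 or Day 5 replicate 2 (adjusted p = 0.0864 and 0.0813). The fall of Hadh from Day 2 to Day 5 was lost without Day 2 replicate 3 or Day 5 replicate 3 (adjusted p = 0.0812 and 0.0526).

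Hadha and Hadhb encode both chains of the mitochondrial trifunctional protein, which takes the later steps on long chains. Hadha had intensities of 487, 563 and 523 on Day -1 and of 951, 806 and 699 on Day 5, without overlap. The levels between were 638, 643, 633, 844, 970 and 949. The log2 change from Day -1 to Day 5 was 0.63 (SE 0.13, adjusted p = 0.000169). Hadhb had intensities of 1960, 2456 and 2527 on Day -1 and 2124, 1800 and 1702 on Day 0. Day 0.25 had 2735, 2279 and 2581 and Day 5 had 2928, 3305 and 2493. Here the arrays of Day -1 overlapped with those of Day 0 and of Day 5. Hadhb changed by -0.30 on the log2 scale from Day -1 to Day 0 (adjusted p = 0.0605) and 0.33 from Day -1 to Day 5 (SE 0.13, adjusted p = 0.0268). The latter call was lost without replicate 1 of Day -1 or replicate 1 or 2 of Day 5 (adjusted p = 0.165, 0.0596 and 0.141) and in a fit of the 6 arrays of both days (0.106), and a further probe set of Hadhb gave -0.05 (adjusted p = 0.558). Both genes start from opposite strands of the same short stretch of chromosome 5, which is printed because they share it. Hadha is transcribed leftward from its left end and Hadhb rightward from its right end, and the GGGCGG elements on the strand shown are in capitals.
Hadha and Hadhb (chr5:30154981-30155252, plus strand): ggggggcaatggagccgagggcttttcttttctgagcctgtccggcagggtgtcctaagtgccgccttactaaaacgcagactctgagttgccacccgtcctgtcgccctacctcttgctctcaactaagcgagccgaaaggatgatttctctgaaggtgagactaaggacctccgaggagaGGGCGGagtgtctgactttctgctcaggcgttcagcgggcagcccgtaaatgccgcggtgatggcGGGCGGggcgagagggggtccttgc

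Hadh, the dehydrogenase of short and medium chains, was the sole fatty acid gene called lower on Day 5 than on Day -1, on 1 of its 2 probe sets at a level of 100. Its intensities were 2801, 2710 and 3039 on Day -1 and 3498, 3462 and 3239 on Day 0. Day 0.25 had 2772, 2688 and 2633 and Day 5 had 2174, 2126 and 2024. The levels between were 2555, 2520, 2303 and 2111. The arrays of Day 0 lay above all others. Hadh changed by -0.33 on the log2 scale from Day 0 to Day 0.25 (SE 0.08, adjusted p = 0.002) and -0.43 from Day -1 to Day 5 (SE 0.08, adjusted p = 4.97e-05), while the rise from Day -1 to Day 0 (0.26, adjusted p = 0.0113) was lost without Day -1 replicate 2 (0.0544) and in a fit of the 6 arrays of both days (0.0526). On a further probe set the change from Day -1 to Day 5 was -0.11 (adjusted p = 0.304). Echs1, the short-chain enoyl-CoA hydratase, rose from 505 ± 45.5 to 675 ± 52.6 on Day 0 (log2 change 0.42, adjusted p = 0.00212). Acaa2, the thiolase of the last step, rose from 548 ± 71.7 to 810 ± 57.6 on Day 0 (log2 change 0.57, SE 0.11, adjusted p = 0.000244), stood at 985 ± 35.6 on Day 1, and fell from 885 ± 75.0 on Day 2 to 535 ± 6.04 on Day 5 (log2 change -0.72, SE 0.11, adjusted p = 2.76e-05).

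Electron transfer flavoprotein takes the electrons of the acyl-CoA dehydrogenases, and its oxidoreductase, encoded by Etfdh, hands them to ubiquinone. Etfa had intensities of 1641, 1477 and 1603 on Day -1 and 1985, 2024 and 1898 on Day 0. Day 5 had 1936, 2171 and 2002, with levels of 1630, 1906, 1772, 1850 and 1856 in between. Both later sets lay above Day -1. It changed by 0.37 on the log2 scale from Day -1 to Day 5 (SE 0.10, adjusted p = 0.00237) and 0.32 from Day -1 to Day 0 (adjusted p = 0.0117, and 0.0562 without Day -1 replicate 2). Etfb, the other chain, went from 437, 289 and 447 on Day -1 to 574, 736 and 646 on Day 0 and back to 374, 473 and 343 on Day 0.25. The arrays of Day 0 lay above both. The log2 changes were 0.76 (SE 0.21, adjusted p = 0.00583) and -0.72 (SE 0.21, adjusted p = 0.00884), and Etfb stood at 394 ± 101 on Day 5. Etfdh rose from 374 ± 17.4 on Day -1 to 458 ± 20.0 on Day 5 (log2 change 0.29, SE 0.08, adjusted p = 0.00184, and 0.0602 in a fit of the 6 arrays of both days), with levels of 426, 410, 374, 471, 465 and 457 in between.

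Promoter windows, from 250 bases before to 50 bases after a start, were read from RefSeq (build GRCm38.p6) for 35 of the 40 genes, in 41 windows. Lpl, Pdp1, Idh3a, Cpt1b and Acaa2 were not matched. Motifs were searched on both strands and are a description of these letters only. The E-box CAGCTG, known from myogenic factors, was found in 2 of the 35 genes (5.71%, Dld and Cpt1a), beside 18.3% of 27025 genes. The MEF2 motif (4.23% of all genes), the estrogen-related receptor motif TCAAGGTCA (0.466%) and the PPAR:RXR motif, a repeat of AGGTCA with 1 base between (0.0481%), were found in none of the 35. The NRF1 motif was found in 4 (11.4%, beside 5.19%), Dld, Sucla2, Etfb and Etfdh. Its letters, with 1 free base, are those in capitals in the Sucla2 and Etfdh stretches here. In the Etfb stretch the motif lies on the other strand, so the capitals there are its reverse complement. CCAAT and GGGCGG were added after the promoter sequences had been seen. CCAAT was found in 18 of the 35 (51.4%, beside 41.1%) and GGGCGG in 24 (68.6%, beside 38.2%). The estrogen-related receptor and PPAR:RXR motifs share the letters AGGTCA. The stretches with the NRF1 motif or the E-box are printed for genes described above, with the motif in capitals.
Sucla2 (chr14:73552746-73552785, plus strand): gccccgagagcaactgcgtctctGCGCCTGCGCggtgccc
Etfb (chr7:43444032-43444071, plus strand): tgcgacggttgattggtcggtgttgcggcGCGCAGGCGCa
Etfdh (chr3:79628868-79628907, minus strand): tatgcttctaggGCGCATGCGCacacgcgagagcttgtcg
Cpt1a (chr19:3323251-3323290, plus strand): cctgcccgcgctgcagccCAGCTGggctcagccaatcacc

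Other genes of the same pathways were taken from lists fixed by role. Of all genes, 25.2% were called higher and 21.5% lower from Day -1 to Day 0, 21.5% and 23.6% in the next 6 hours, and 31.6% and 38.4% over the whole course. Among 13 tested of 20 other genes of pyruvate and the TCA cycle, 3 rose and 1 fell from Day -1 to Day 0, and over the whole course 3 rose and 4 fell. Among 19 tested of 28 other genes of fatty acid oxidation, 11 rose and 2 fell from Day -1 to Day 0, and 4 rose and 9 fell in the next 6 hours. Over the whole course 9 rose and 6 fell. Acot2, a mitochondrial thioesterase that splits long-chain acyl-CoA, had levels of 20.2 on Day -1, 218 on Day 0 and 21.1 on Day 0.25. It then stood at 60.7 on Day 1, 135 on Day 2 and 361 on Day 5. Its log2 change from Day -1 to Day 5 was 4.18 (SE 0.23, adjusted p = 4.09e-12), and it was 3.43 from Day -1 to Day 0 (adjusted p = 7.58e-10) and -3.38 from Day 0 to Day 0.25 (adjusted p = 1.46e-09). Acadsb, a dehydrogenase of branched short chains, rose from 141 ± 20.0 on Day -1 to 458 ± 62.2 on Day 5 (log2 change 1.70, adjusted p = 3.4e-10). Acsl5, an acyl-CoA synthetase, fell from 1806 ± 126 to 301 ± 4.78 (log2 change -2.58, adjusted p = 4.9e-14). Fabp5, the epidermal fatty acid-binding protein, fell from 2598 ± 245 to 229 ± 110 (log2 change -3.60, adjusted p = 9.87e-10), opposite in sign to Fabp3.

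Among the genes around pyruvate, Pcx encodes pyruvate carboxylase, which refills the cycle with oxaloacetate. It rose from 22.0 ± 7.61 on Day -1 to 216 ± 59.1 on Day 5 (log2 change 3.32, SE 0.27, adjusted p = 9.97e-10), and its levels were 35.1 on Day 1 and 132 on Day 2. Mpc1, a subunit of the mitochondrial pyruvate carrier, rose from 1072 ± 174 to 1949 ± 365 (log2 change 0.86, adjusted p = 0.000135). Me2, a mitochondrial malic enzyme, fell from 728 ± 33.5 to 177 ± 18.6 (log2 change -2.04, adjusted p = 1.63e-11). Slc25a11, the carrier of 2-oxoglutarate and malate, fell from 792 ± 56.5 to 567 ± 30.1 (log2 change -0.48, adjusted p = 0.000387), after 1113 on Day 0.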

How the data were processed

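Expression in mouse C2C12 cells was read on 24 arrays at 8 time points (3 arrays at each), and time points and replicates were taken from the sample labels. The deposited table holds 1 linear intensity per probe set and array. The authors computed them with GC-RMA, exponentiated them and brought every array to a common trimmed mean, which keeps relative but not absolute amounts of RNA. The submitters' processing notes name GCRMA and MAS5, without a role for MAS5. No column of other samples was left out (0).

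Log2 intensities were fitted with limma 3.58.1 in R 4.3.3, with p-values adjusted by the method of Benjamini and Hochberg over all probe sets tested and a threshold of 0.05. The 24 arrays shared 1 fit over the 13735 probe sets that reached a level of 100 at any time point. Day 1 and Day 2 were compared in a fit of their own 6 arrays over the 12622 that reached it on either day, as the methods of the study have it. Fold changes come from means of log2 values. The 64 control probe sets were left out. By the array annotation, 34945 probe sets carried 1 gene, 932 several and 9160 none listed, and 34741 of the first were matched by Entrez ID to a RefSeq table. The fits were tested on simulated data.

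The members and the lists were chosen with earlier results of these data known. Full values are given, by role, for the 2 largest rises and the 2 largest falls past the threshold from Day -1 to Day 5 and for alternative forms of 1 step, and up to 2 other pathway genes per list are named in each direction by adjusted p. Lpl, Etfb, Acads, Acaa2, Acadm and other members described beside these were picked after their values had been seen. Alternatives were the 6 arrays compared, a replicate block, a level of 200, no level filter, quantile normalization, a pseudocount of 16, the probe set with the highest absolute statistic, an intensity trend in the prior, all 24 arrays for Day 1 and Day 2, and leaving out each array.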

Additional observations from a re-analysis of the deposited data

How the results depend on the processing

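With a fit of the 6 arrays of the time points compared, the genes lower from Day -1 to Day 0 became 2, those higher from Day 0 to Day 0.25 became 2, those higher and lower from Day 0.25 to Day 1 became 4 and 1, and those lower from Day 2 to Day 5 became 4. With the probe set of the highest absolute statistic, 8 genes were lower from Day 1 to Day 2. No other planned setting that kept all arrays moved a count of the 38 genes by over 1.5 times. Leaving out each array in turn gave 15 to 18 genes higher and 3 to 4 lower from Day -1 to Day 0, 2 to 4 and 8 to 14 from Day 0 to Day 0.25, 2 to 8 and 1 to 3 from Day 0.25 to Day 1, 4 to 10 and 2 to 7 from Day 1 to Day 2, 3 to 5 and 8 to 9 from Day 2 to Day 5, 15 to 17 and 6 to 7 from Day -1 to Day 5, and 30 to 35 genes changed over the 8 time points. The causes were not tested. The main fits did not pair samples by replicate number, and the labels do not say whether these numbers mark pairs. Deviations of arrays with the same number correlated between -0.56 and 0.56, and 9 of 18 pairs were above 0.1. With 3 arrays per time point, these correlations cannot settle whether the samples were paired. With the replicate number as a block, 110 of 119 changes of single genes kept their side of the threshold and 9 no longer passed, and no count moved by over 1.5 times. Of the changes named, Mdh1 and Cpt1a turned from Day -1 to Day 5 with the probe set of the highest absolute statistic, to -0.30 and 0.41 on the log2 scale. Of the 33 changes called from Day -1 to Day 5 (25 of the 38 genes and 8 other pathway genes), 26 kept direction and call under every setting. Signal over background limits Pdk2, which never reached a level of 100, and the values below that level of Cd36 before Day 2, Fabp3 before Day 1, Pdk4 on Days -1, 0 and 1, Acads on Days -1 and 5 and Pdk3 on Days 4 and 5. Of the other pathway genes named, it limits Acot2 on Days -1, 0.25 and 1 and Pcx before Day 2.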
